A study of Macaca radiata with 6 samples.

Results

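S100A8 and S100A9 encode the subunits of calprotectin, and LCN2 encodes lipocalin-2. The 3 genes were taken through every probe set of the array whose single annotated symbol is S100A8, S100A9 or LCN2, whatever its brightness. This gave 6 of 52766 probe sets that are not controls, and 3 of the 14132 genes named by a single symbol. S100A8 and S100A9 each have 1 probe set, and LCN2 has 4. The genes were chosen by their higher signals after prostaglandin F2-alpha on these same arrays. Their differences between the groups are therefore given as a description, with no test.

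The tissue was the corpus luteum, the gland that forms from the ovulated follicle and secretes progesterone, of female bonnet monkeys (Macaca radiata) on day 10 of the luteal phase. The treated group had prostaglandin F2-alpha (PGF2alpha), which brings about regression of the gland, in 3 intramuscular injections at 59 µg/kg, and the control group had phosphate-buffered saline as vehicle. In both groups the gland was taken 24 h later, and each group has 3 arrays (PGF2alpha replicates 1 to 3 and vehicle replicates 4 to 6). The labels give 3 monkeys per group but tie no array to an animal, and the p-values therefore cover only array-to-array spread, which may be technical. They leave unsaid whether the dose is per injection. Ages are not given in the sources used here. The RNA came from pieces of whole gland hybridised to an array of the Rhesus chip type, designed for another macaque. In such tissue RNA, fewer cells of a type and less RNA per cell cannot be told apart.

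Calprotectin is a heterodimer of both S100 proteins that binds calcium, zinc and manganese. It is stored in the cytosol of neutrophils, is made by monocytes as well, and when released it signals through toll-like receptor 4 and the receptor for advanced glycation end products. Lipocalin-2 is a protein of neutrophil specific granules that is also made by epithelial cells and macrophages under inflammatory stimuli, and it sequesters the siderophores with which bacteria take up iron. Neutrophils and monocytes enter the regressing corpus luteum in several species.

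Each array as deposited had the same trimmed mean of 500.0, so a like overall level is no check of the arrays. Their median signals lay between 115 and 134. The ratio of 3-prime to 5-prime beta-actin control signals, a measure of RNA integrity, was 1.73 to 1.78 after PGF2alpha and 1.49 to 2.25 after vehicle, the highest being vehicle replicate 5. The same ratio for GAPDH was 1.39 to 1.68 after PGF2alpha and 1.41 to 1.73 after vehicle, where replicate 5 was the lowest. Runs were set here from the clock times of hybridisation start in the scanner files, split where these lay over an hour apart. This placed PGF2alpha replicates 1 and 3 and vehicle replicates 5 and 6 in run 1. PGF2alpha replicate 2 and vehicle replicate 4 fell in run 2. No array was left out.

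S100A8 (gene ID 714740, probe set MmugDNA.17376.1.S1_at) had signals of 4720.2, 6709 and 2231 in PGF2alpha replicates 1, 2 and 3. In vehicle replicates 4, 5 and 6 the signals were 117, 41.2 and 136. The groups did not overlap: the lowest treated signal was 16.4 times the highest vehicle signal. The group means were 4553 ± 2244 and 97.9 ± 50.0 (SD, n = 3), a ratio of 46.5. On the log2(signal + 40) scale, on which all differences below are given, S100A8 stood 5.00 higher after PGF2alpha.

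S100A9 (gene ID 714690, probe set MmuSTS.2130.1.S1_s_at), the other subunit, read 6116, 10253 and 2403 in PGF2alpha replicates 1, 2 and 3. It read 127, 30.1 and 62.3 in vehicle replicates 4, 5 and 6. The lowest treated signal was 18.9 times the highest vehicle signal. Means were 6257 ± 3927 and 73.1 ± 49.3 (SD, n = 3), a ratio of 85.6, and the log2 difference was 5.66. The suffix of this probe set marks probes shared by more than 1 transcript, so some of its signal could come from another gene.

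Both calprotectin genes moved from the dim part of the array to the bright part. On the vehicle arrays S100A8 lay above 24.5% to 52.5% of all probe sets, and S100A9 above 20.3% to 50.8%. On the treated arrays these shares were 92.6% to 97.9% and 93.2% to 98.7%. The difference of S100A9 was the 4th highest and that of S100A8 the 7th highest among the 52766 probe sets. Detection calls were not used here, so the vehicle signals were not shown to lie above background and the size of both ratios is uncertain. With pseudocounts of 10 and 160 in place of 40, the log2 difference was 5.40 and 4.08 for S100A8 and 6.18 and 4.58 for S100A9.

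**Figure D1:**
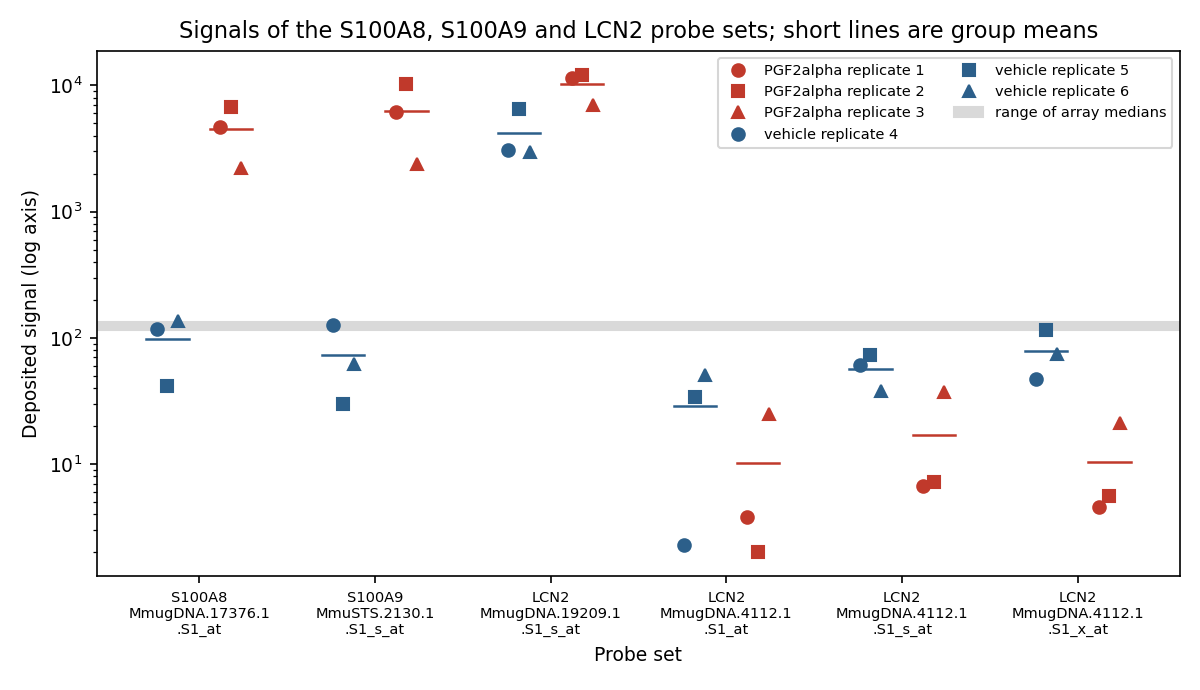
Deposited signal of each of the 6 probe sets of S100A8, S100A9 and LCN2 (log axis) on each of the 6 arrays, in red for PGF2alpha and blue for vehicle, with short lines at the group means and a grey band over the array medians (115 to 134). S100A8 and S100A9 lie at 2231 or above on every treated array and at 136 or below on every vehicle array, the first LCN2 probe set is bright on all 6 arrays, and the other 3 LCN2 probe sets are at or under the lower edge of the band.

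LCN2 (gene ID 697208) was bright in both groups on 1 of its 4 probe sets. MmugDNA.19209.1.S1_s_at read 11367, 12180.4 and 7006 in PGF2alpha replicates 1, 2 and 3. In vehicle replicates 4, 5 and 6 it read 3056, 6486 and 2954. It lay above 98.0% to 99.0% of probe sets on the treated arrays and above 94.5% to 97.9% on the vehicle arrays. The groups were separated only narrowly, since the lowest treated signal (replicate 3) was 1.08 times the highest vehicle signal (replicate 5). Means were 10185 ± 2782 and 4165 ± 2010.3 (SD, n = 3), a ratio of 2.45, and the log2 difference was 1.34, the 467th highest of 52766. Unlike the vehicle signals of calprotectin, those of LCN2 left the pseudocount with little weight: the difference was 1.35 with a pseudocount of 10 and 1.31 with 160.

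The other 3 LCN2 probe sets did not show this. They share the stem MmugDNA.4112.1, and on each array they read less than the array's median. The version ending in .S1_at read 3.80, 2.0 and 24.7 in PGF2alpha replicates 1, 2 and 3 and 2.28, 34.1 and 50.6 in vehicle replicates 4, 5 and 6, with groups that overlapped (log2 difference -0.42). The version ending in .S1_s_at read 6.66, 7.17 and 37.2 after PGF2alpha and 60.7, 72.6 and 37.8 after vehicle, so that PGF2alpha replicate 3 and vehicle replicate 6 were almost level (log2 difference -0.79). The version ending in .S1_x_at, a suffix for probes that can cross-hybridise, read 4.57, 5.62 and 21.0 after PGF2alpha and 47.5, 115 and 73.9 after vehicle (log2 difference -1.21).

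The LCN2 probe sets therefore disagreed in direction, and the bright one is of the kind with shared probes. Averaged over all 4 probe sets the log2 difference of LCN2 was -0.27, and it was -0.42 when only the probe set without a suffix for shared probes was kept. Which of the 4 reads lipocalin-2 transcripts of this species was not tested, and the higher level of LCN2 rests on 1 probe set. The 3 dim probe sets also failed a filter that asks for a signal at or above the array median in at least 3 arrays. S100A8 and S100A9 passed it with 4 arrays each, of which 3 were the treated ones, and the bright LCN2 probe set passed with 6.

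Of the 6 probe sets, 3 had all treated arrays above all vehicle arrays and 2 had all treated arrays below. Over all 52766 probe sets these shares were 9.21% and 10.2%. Nothing is read from this comparison, as the genes were chosen for it.

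The arrays of a group did not stand alike. Within the treated group all 3 bright probe sets were highest in replicate 2, intermediate in replicate 1 and lowest in replicate 3, with a log2 span of 1.57 for S100A8, 2.07 for S100A9 and 0.79 for LCN2. Against the vehicle mean, PGF2alpha replicate 3 stood 4.12 higher for S100A8, 4.52 for S100A9 and 0.84 for LCN2, compared with 5.69, 6.60 and 1.64 for replicate 2. Luteal steroid cell markers, summed over 5 genes, reached 138720.0 in PGF2alpha replicate 3. Their sums were 75963 in replicate 1, 83950.1 in replicate 2 and 155270.0 to 184620.0 on the vehicle arrays. The treated array with the lowest S100A8, S100A9 and LCN2 was thus the treated array with the highest steroid cell signal, and the part of tissue composition in this was not tested.

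Among the vehicle arrays the calprotectin genes and LCN2 differed. Vehicle replicate 5 was lowest for S100A8 and S100A9 and highest for LCN2, whose signal there was 2.20 times that in replicate 6. Replicate 5 is the array with the highest ratio of 3-prime to 5-prime actin. By the same ratio for GAPDH it was the lowest vehicle array (1.41, against 1.73 in replicate 4 and 1.56 in replicate 6). The part of RNA integrity in the pattern of replicate 5 was not tested. Without vehicle replicate 5 the log2 difference of LCN2 was 1.71, and those of S100A8 and S100A9 were 4.65 and 5.36.

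The direction on the bright probe sets was the same in both hybridisation runs. It could not have differed, because on these probe sets all treated arrays stood above all vehicle arrays. Only the sizes of the differences are therefore read here, by run and with 1 array left out. Within run 1, with 2 arrays a group, the log2 differences of S100A8, S100A9 and LCN2 were 4.78, 5.52 and 1.02. Within run 2, with 1 array a group, they were 5.43, 5.95 and 1.98. The LCN2 difference in run 1 includes vehicle replicate 5. Over the 6 fits that each left out 1 array, the range was 4.65 to 5.44 for S100A8, 5.19 to 6.23 for S100A9 and 1.15 to 1.71 for LCN2.

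**Figure D2:**
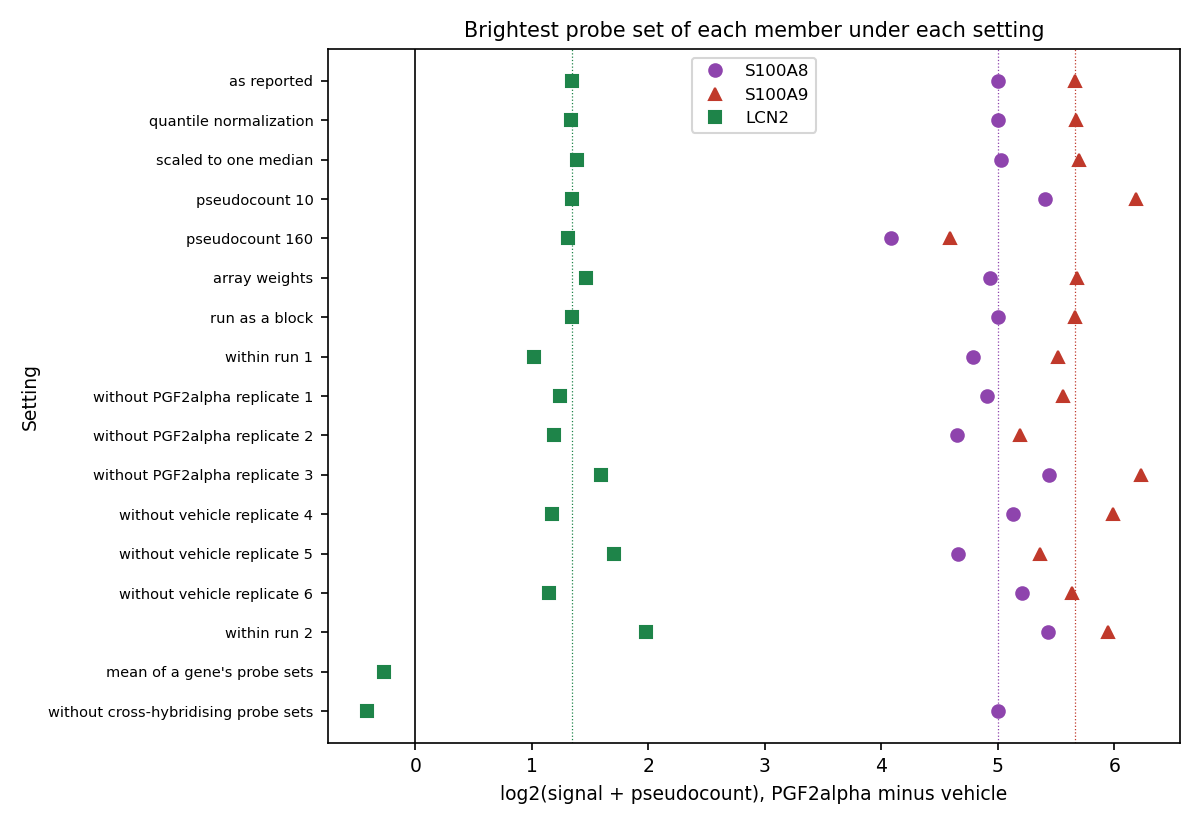
Difference in log2(signal + pseudocount) between PGF2alpha and vehicle (x axis) for the brightest probe set of S100A8, S100A9 and LCN2 under each setting (y axis), with dotted lines at the reported 5.00, 5.66 and 1.34. S100A8 and S100A9 stay between 4.08 and 6.23 in every setting drawn, and LCN2 is between 1.02 and 1.98 except for the last 2 settings, which use its dim probe sets and give -0.27 and -0.42.

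Likeness of pattern was measured as the root mean square difference of log2(signal + 40) over the 6 arrays, after each probe set was centred on its own mean. S100A8 and S100A9 differed from each other by 0.44, which is less than the difference of either from any of the 14129 other named genes. The genes nearest to S100A8 were CCL18, a chemokine of alternatively activated macrophages (0.60), ANKRD1, an ankyrin-repeat protein of muscle nuclei (0.69), CCL17, a ligand of the receptor CCR4 (0.74), PLAC8 (0.86) and CP, the ferroxidase ceruloplasmin (0.86). The genes nearest to S100A9 were CCL17 (0.58), ANKRD1 (0.86), CCL18 (0.91), the myosin heavy chain MYH8 (1.02) and CP (1.07). The median over all named genes was 2.59 for S100A8 and 2.94 for S100A9. The difference between the groups is itself part of this measure.

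CCL18 and CCL17, picked by likeness over these same arrays, illustrate how far the patterns went together. CCL18 read 6998, 12637 and 8135 after PGF2alpha and 319.5, 383 and 433 after vehicle. CCL17 read 3023, 10515 and 2507 after PGF2alpha and 118, 84.8 and 24.5 after vehicle. Both were highest in PGF2alpha replicate 2, as calprotectin was, but CCL18 was not lowest in replicate 3.

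The pattern of LCN2 differed from that of S100A8 by 1.98 and from that of S100A9 by 2.30. Seen from calprotectin, LCN2 was the 250th nearest of the named genes to S100A8 and the 225th nearest to S100A9. Seen from LCN2, S100A8 ranked 14113th and S100A9 14123rd. The measure is not scaled, so a gene with a large difference lies far from one with a small difference even where both are higher on the same arrays. The genes nearest to LCN2 were NLRX1, a mitochondrial regulator of innate signalling (0.14), GDF15, a stress-induced cytokine of the TGF-beta superfamily (0.19), CGAS, the sensor of cytosolic DNA (0.21), RAMP1, a subunit of the CGRP receptor (0.23), and S100A4, another S100 protein (0.24), against a median of 0.85 over all named genes. GDF15 read 1552, 1567 and 1159 after PGF2alpha and 375, 674 and 339 after vehicle. S100A4 read 2388, 3460.02 and 1361 after PGF2alpha and 517, 1092 and 624 after vehicle. In both genes, as in LCN2, vehicle replicate 5 was the highest vehicle array and PGF2alpha replicate 3 the lowest treated array. Both genes were picked by likeness over these same arrays, so the shared pattern follows from that choice.

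**Figure D3:**
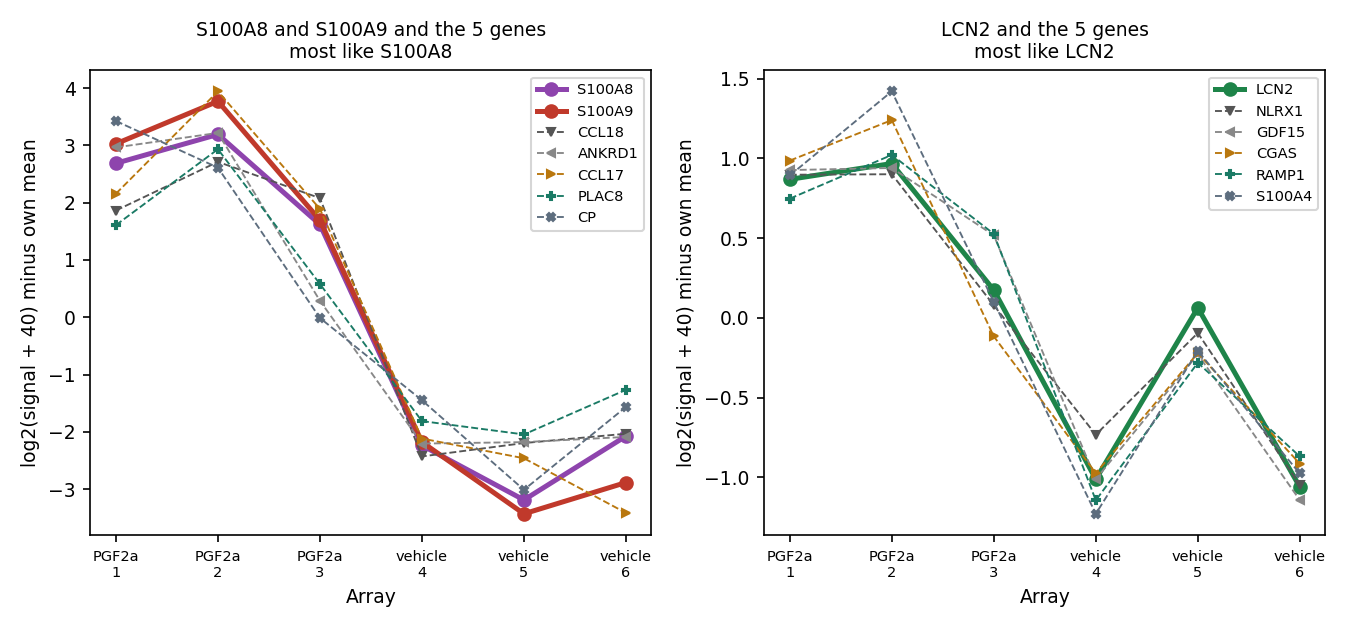
Centred log2(signal + 40) on each array (PGF2a stands for PGF2alpha), on the left for S100A8, S100A9 and the 5 named genes nearest to S100A8, on the right for LCN2 and the 5 named genes nearest to it. The lines join arrays only to show each gene's pattern. S100A8 and S100A9 run together (0.44). LCN2 and its neighbours share a raised vehicle replicate 5, which follows from their choice by likeness over these arrays.

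Genes outside the trio were tested with limma over all 52766 probe sets with Benjamini-Hochberg adjustment, each gene read from its probe set of highest mean. It called 826 probe sets in either direction (1.57%). Of 14132 genes, 1.63% were called higher and 0.885% lower after PGF2alpha at an adjusted p under 0.05, and the median log2 difference was -0.02. The lists below leave out S100A8, S100A9 and LCN2. Their counts of calls and their medians are given beside these values, and nothing is called particular to a list. No share over all genes was taken for counts at an unadjusted p under 0.05, so nothing is read from those counts.

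Markers of neutrophils, the cells for which the trio is best known, mostly did not pass. Of the 18 markers measured, 9 lay below the array median on every array, and 6 reached it in at least 3 arrays. For dim genes a missing call does not show that the level was unchanged. Of 28 genes in 3 lists 18 were measured, and 2 rose and 0 fell (1 of 8 in specific and gelatinase granules and 1 of 5 surface receptors), with a median log2 difference of 0.20 (0.28 within run 1 and -0.10 within run 2) and with 5 higher and 1 lower at an unadjusted p under 0.05. The lists differed in their medians: -0.28 for azurophil granules, 0.20 for specific and gelatinase granules and 1.09 for surface receptors (1.06 within run 1 and 0.87 within run 2), of which 4 of 5 were higher at an unadjusted p under 0.05. MMP9, the gelatinase that forms a complex with lipocalin-2, read 633, 1411 and 488 after PGF2alpha and 159, 91.0 and 173 after vehicle. It rose by 2.18 (SE 0.366, limma adjusted p = 0.0255). TREM1, an activating receptor of neutrophils and monocytes, read 638, 636 and 421 after PGF2alpha and 91.2, 82.0 and 192 after vehicle, and it rose by 1.94 (SE 0.299, limma adjusted p = 0.0184). Both genes are made by monocytes and macrophages too. The count was 0 without PGF2alpha replicate 1, PGF2alpha replicate 2, vehicle replicate 4 or vehicle replicate 5, 1 without vehicle replicate 6 and 2 without PGF2alpha replicate 3. The adjusted p over these 6 fits ran from 0.014 to 0.0977 for MMP9 and from 0.0162 to 0.117 for TREM1, and over all 19 alternatives it reached 0.212 and 0.279.

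The defining granule enzymes of neutrophils were dim on every array. Of 5 azurophil granule genes measured, limma called 0 higher and 0 lower, also at an unadjusted p under 0.05, and 4 of them lay below the median of every array. Myeloperoxidase (MPO) read 84.4, 44.2 and 66.4 after PGF2alpha and 111, 67.6 and 81.7 after vehicle (log2 difference -0.28, adjusted p = 0.766). The other probe set of MPO, dimmer still, had means of 59.5 after PGF2alpha and 19.9 after vehicle (0.66, limma adjusted p = 0.423). Neutrophil elastase (ELANE) read 89.1, 21.2 and 54.2 after PGF2alpha and 117, 73.2 and 109 after vehicle (-0.61, adjusted p = 0.501). Treated and vehicle arrays overlapped for both enzymes. The sum over the 5 genes was 130 to 358 after PGF2alpha and 255 to 364 after vehicle. As background, mature neutrophils hold these enzymes as protein with little transcript.

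Genes of the specific and gelatinase granule and surface receptor lists other than MMP9 and TREM1 were not called. The third member of the calgranulin group, S100A12, read 26.1, 94.8 and 84.4 after PGF2alpha and 25.6, 41.8 and 38.9 after vehicle, with overlapping groups (0.46, adjusted p = 0.615). The collagenase MMP8 (0.16, adjusted p = 0.876) and the cathelicidin CAMP (0.87, adjusted p = 0.37) did not pass, and neither did the G-CSF receptor CSF3R (1.09, adjusted p = 0.209) or the Fc receptor FCGR3 (1.18, adjusted p = 0.0925). Lower values, named after they were seen, were those of the membrane protease MMP25 (-0.55, adjusted p = 0.325), ARG1 (-0.35, adjusted p = 0.594) and CD177 (-0.34, adjusted p = 0.689), and MMP25 was lower on all treated arrays. CSF3R read 201, 135 and 103 after PGF2alpha and 32.4, 25.6 and 91.1 after vehicle, without overlap. Of the 10 defining markers chosen for neutrophils, LTF and CXCR2 are not analysed here. The summed signal of the specific and gelatinase granule list overlapped, at 5923 to 7035 after PGF2alpha and 4293 to 6028 after vehicle, and 82.9% of it was OLFM4. The summed signal of 5 surface receptors did not, at 1094 to 1617 after PGF2alpha and 370.2 to 654 after vehicle. The part of neutrophil number in the higher calprotectin signal was not tested.

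Of 7 genes of the phagocyte oxidase and the beta2 integrin chains, shared by neutrophils and macrophages, 2 rose and 0 fell, both of the oxidase (5 higher and 0 lower at an unadjusted p under 0.05), with a median of 1.16 (0.95 within run 1 and 1.79 within run 2). CYBB, the catalytic subunit of the oxidase, read 2083, 2837 and 1522 after PGF2alpha and 593, 299 and 647 after vehicle, and rose by 2.0 (SE 0.296, limma adjusted p = 0.0166). NCF4, a cytosolic oxidase subunit, rose by 1.26 (SE 0.244, limma adjusted p = 0.0417). The call of CYBB was lost without PGF2alpha replicate 1 (adjusted p = 0.086) or replicate 2 (adjusted p = 0.0956). That of NCF4 was lost without any array other than PGF2alpha replicate 3 (adjusted p from 0.114 to 0.142). Over all 19 alternatives the adjusted p ran from 0.00863 to 0.21 for CYBB and from 0.0218 to 0.299 for NCF4. The 2 other probe sets of NCF4 read 0.34 and 0.81 and were not called. The integrin chains ITGB2 (1.52, adjusted p = 0.0800) and ITGAM (-0.12, adjusted p = 0.913) and the oxidase subunit CYBA (0.06, adjusted p = 0.916), named after their values were seen, did not pass.

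Receptors of calprotectin and lipocalin-2 and their adaptors numbered 12 measured of 15, of which 2 rose and 0 fell (4 higher and 0 lower at an unadjusted p under 0.05), with a median of 0.20. TLR4, the toll-like receptor through which calprotectin signals, read 587, 714 and 569 after PGF2alpha and 153, 165 and 239 after vehicle, without overlap, and rose by 1.57 (SE 0.214, limma adjusted p = 0.0138). Its 2 other probe sets read -0.31 and 1.17 and were not called. CD14, its co-receptor for endotoxin, rose by 1.23 (SE 0.22, limma adjusted p = 0.0324). The call of TLR4 was lost without PGF2alpha replicate 1, PGF2alpha replicate 2 or vehicle replicate 5 (adjusted p of 0.074, 0.0927 and 0.05002). The call of CD14 was lost without any array other than PGF2alpha replicate 3 (adjusted p from 0.0515 to 0.15). Over all alternatives the adjusted p ran from 0.00652 to 0.235 for TLR4 and from 0.0212 to 0.239 for CD14. Among the rest, chosen after their values were seen, CD33, a sialic acid receptor of myeloid cells, read 87.5, 334 and 133 after PGF2alpha and 42.3, 56.5 and 26.7 after vehicle, without overlap (1.32, adjusted p = 0.180). BSG, basigin, stood at 0.36 (adjusted p = 0.356), LY96, the partner of TLR4, stood at 0.04 (adjusted p = 0.973) and AGER, the receptor for advanced glycation end products, at 0.17 (adjusted p = 0.895). The lipocalin-2 receptors SLC22A17 (-0.16, adjusted p = 0.656) and LRP2 (-0.31, adjusted p = 0.755), named in the same way, did not pass either.

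Cytokines that induce the trio in other tissues were not called. Of 10 measured, limma called 0 higher and 0 lower (0 higher and 1 lower at an unadjusted p under 0.05), with a median of -0.02. Of these genes, 5 lay below the median of every array, and 3 reached it in at least 3 arrays. For the dim ones a missing call does not show an unchanged level. The smallest p-values were those of IFNG (-0.59, limma adjusted p = 0.295) and IL10 (-0.30, limma adjusted p = 0.438). IFNG was dim, with means of 19.9 after PGF2alpha and 49.8 after vehicle. Of 7 neutrophil-attracting chemokines 3 were measured, and CXCL1, CXCL2, CXCL3 and CXCL5 are not analysed here. Limma called 0 of the 3, also at an unadjusted p under 0.05, with a median of -0.05. CXCL8, a main chemokine of neutrophils in primates, stood at 1.03 (limma adjusted p = 0.448) and PPBP at -0.50 (limma adjusted p = 0.647). CXCL8 read 234, 610 and 76.7 after PGF2alpha and 72.1, 91.1 and 125 after vehicle. With 1 array left out, its limma adjusted p ran from 0.0905, without PGF2alpha replicate 3, to 0.793.

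Of 12 transcription regulators measured 1 rose and 0 fell, with a median of 0.37 (0.23 in each run). It was CEBPD, a C/EBP family factor of the acute phase response, which read 3759, 3120.3 and 3953 after PGF2alpha and 2187, 1557 and 1916 after vehicle, and rose by 0.93 (SE 0.16, limma adjusted p = 0.0281). Its groups did not overlap, but PGF2alpha replicate 2, the array with the highest calprotectin, was its lowest treated array. Its call was lost without each array in turn, with adjusted p from 0.0507 to 0.124, against a range of 0.0192 to 0.165 over all alternatives.

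Relatives of the trio by protein family were mostly not called. Of 12 other S100 genes measured, limma called 0 higher and 0 lower (5 higher and 1 lower at an unadjusted p under 0.05), with a median of -0.02. S100A4 stood at 1.61 (adjusted p = 0.0571) and S100A1, a calcium sensor of muscle, at -1.13 (adjusted p = 0.0853). S100A4 passed under 6 of 19 alternatives and S100A1 under 3. Of 11 other lipocalins 1 rose and 0 fell, with a median of -0.04. The gene that rose was APOD, apolipoprotein D, which carries arachidonic acid and steroids. It read 3513, 3428 and 4705 after PGF2alpha and 1356, 1206 and 1152 after vehicle, and rose by 1.61 (SE 0.155, limma adjusted p = 0.00431, 0.00216 to 0.0362 over the fits that left out 1 array). The call of APOD was lost with eBayes without trend (adjusted p = 0.0709) and within run 1 (adjusted p = 0.0765, the highest of 19 alternatives). Unlike S100A8, S100A9 and LCN2, APOD was highest in PGF2alpha replicate 3.

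Metal handling is the known function that calprotectin and lipocalin-2 have in common. Of 15 genes measured for iron, zinc and manganese 1 rose and 0 fell, with a median of 0.10. The gene that rose was CP, which oxidises iron for export. It read 4585, 2592 and 387 after PGF2alpha and 118, 13.5 and 106 after vehicle (4.02, SE 0.772, limma adjusted p = 0.0415). Its call held without PGF2alpha replicate 3 and was lost without each other array (adjusted p from 0.0951 to 0.185), and over all alternatives it ran from 0.0021 to 0.315. Of 12 acute phase proteins 1 rose and 0 fell, with a median of 0.01. The gene that rose was the pentraxin PTX3, which neutrophils and macrophages release (2.33, SE 0.413, limma adjusted p = 0.0316), and its call behaved likewise (0.00327 without PGF2alpha replicate 3, otherwise adjusted p from 0.0963 to 0.131, and 0.00327 to 0.256 over all alternatives). SERPINA3, an inhibitor of neutrophil cathepsin G, was not called on its brightest probe set (-0.05, adjusted p = 0.919). Of its 4 other probe sets, however, 2 were called, at 3.49 and 3.50 (limma adjusted p = 0.00197 for each), and 2 were not (-0.15 and -0.10). With the mean of each gene's probe sets the acute phase count was 2 and the metal count 3. Of the 3 other probe sets of CP, 2 were called as well (3.74 and 5.01). SLC39A8, a zinc and manganese importer, was not called on its brightest probe set (0.45, adjusted p = 0.418) and had called probe sets other than its brightest, at 1.06 and 1.40 (limma adjusted p = 0.0487 and 0.0415).

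Of 13 markers of monocytes and macrophages, the other main source of the trio, 4 rose, 0 fell and 9 were not called (7 higher and 0 lower at an unadjusted p under 0.05), with a median of 0.85 (0.74 within run 1 and 0.66 within run 2). MRC1, the mannose receptor, rose by 2.95 (limma adjusted p = 0.000196), MARCO by 2.67 (adjusted p = 0.0144), VSIG4 by 1.34 (adjusted p = 0.0361) and CD68 by 1.05 (adjusted p = 0.0491). Among those not called, named after their values were seen, FCN1 (-0.04, adjusted p = 0.975) and CD300E (-0.28, adjusted p = 0.802) had negative values, and the complement gene C1QA (0.32, adjusted p = 0.639) had overlapping groups. The other probe set of FCN1 went the other way, at 1.86 (limma adjusted p = 0.0813). That of C1QA did so too, at -0.44 (limma adjusted p = 0.447). The count was 1 without PGF2alpha replicate 1, PGF2alpha replicate 2 or vehicle replicate 5, 2 without vehicle replicate 6, and 3 without PGF2alpha replicate 3 or vehicle replicate 4. Of these calls only that of MRC1 held in all 19 alternatives. The call of CD68 was lost in 13 of them, also without each array in turn. The other probe set of CD68 stood at -0.16 (limma adjusted p = 0.88). Those of MRC1 stood at 2.05 (limma adjusted p = 0.00991) and 0.47 (limma adjusted p = 0.43). The summed signal of the 13 markers was 46526 to 78377 after PGF2alpha and 19731 to 32931 after vehicle, of which 60.9% was lysozyme (LYZ). It was highest in PGF2alpha replicate 2, as S100A8 and S100A9 were, and lowest of the treated arrays in replicate 1, where they were intermediate. The part of macrophage number in the calprotectin signal was not tested.

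Epithelial cells are a further source of the trio. Of 11 epithelial and keratinocyte markers limma called 0 higher and 0 lower (4 higher and 1 lower at an unadjusted p under 0.05), with a median of 0.02 and with PI3, the elastase inhibitor elafin, at 1.54 (adjusted p = 0.0918) and KRT18 at -0.44 (adjusted p = 0.209). Blood content was not shown to differ. Of 7 red cell and platelet markers limma called 0 (0 higher and 1 lower unadjusted), with a median of 0.11. HBB stood at -0.91 (limma adjusted p = 0.25) and AHSP at 0.25 (limma adjusted p = 0.615). The sum of the 7 was 1282 to 2948 after PGF2alpha and 2220 to 2890 after vehicle. Of 6 lymphocyte markers limma called 0 (1 higher and 0 lower unadjusted), with a median of 0.24. CD79A stood at 0.88 (limma adjusted p = 0.264) and CD4 at 0.39 (limma adjusted p = 0.589). The sum of the 6 lymphocyte markers was 7575 to 12326 after PGF2alpha and 5178 to 10726 after vehicle, of which 93.0% was GZMB.

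The labelled tissue was checked on 5 luteal steroid cell markers. All of them lay at or above the array median in at least 3 arrays, and STAR read 63395 ± 7411 after vehicle and 40203 ± 8854 after PGF2alpha (SD, n = 3). Limma called 0 of the 5 (0 higher and 4 lower at an unadjusted p under 0.05), with a median of -0.93 (-0.66 within run 1 and -0.76 within run 2). CYP19A1, aromatase, stood at -1.51 (limma adjusted p = 0.117). FDX1, the electron donor of the side-chain cleavage enzyme, stood at -0.93 (limma adjusted p = 0.147). Without PGF2alpha replicate 3 the count was 3 lower.

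**Figure D4:**
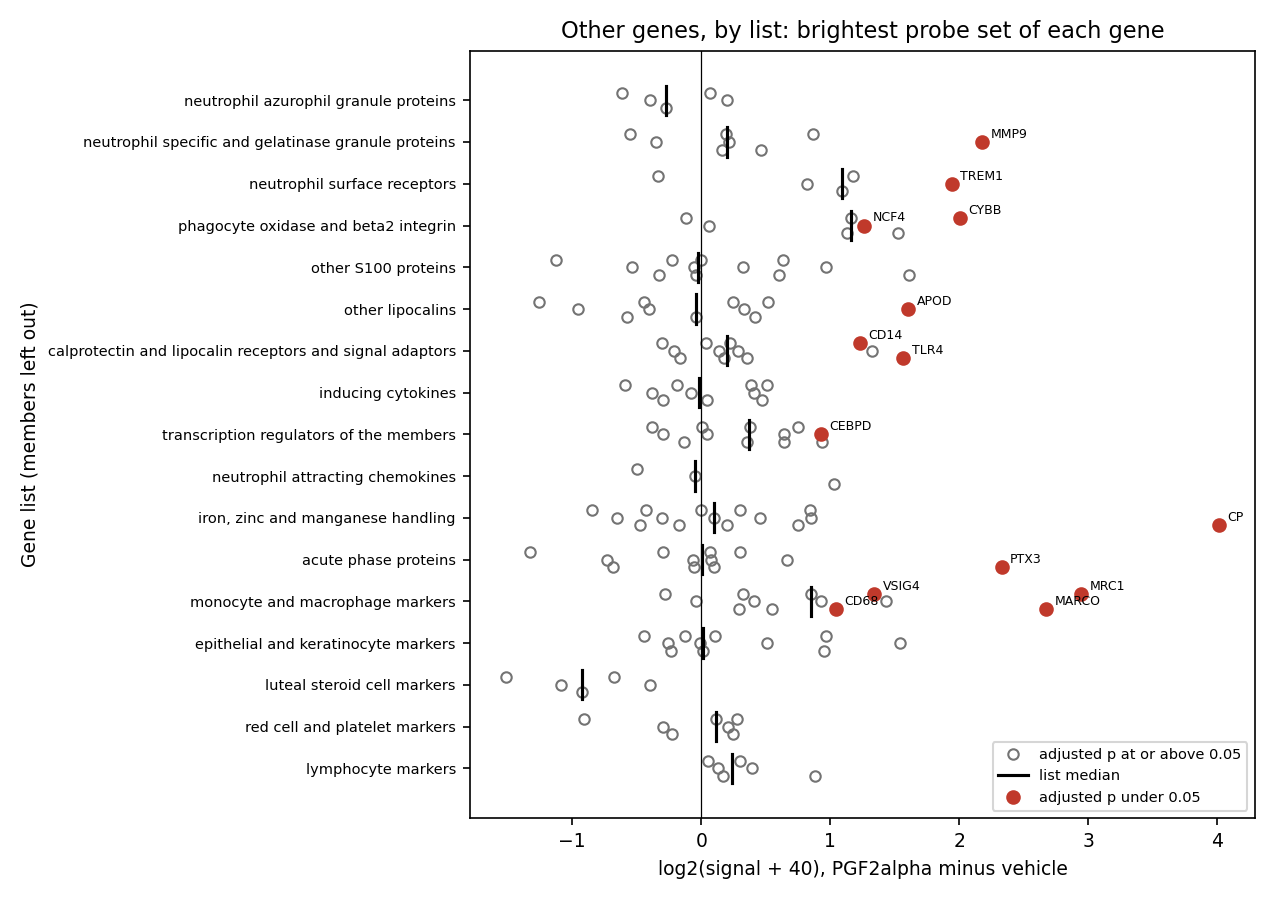
Difference in log2(signal + 40) between PGF2alpha and vehicle (x axis) for each measured gene of 17 lists (y axis), without S100A8, S100A9 and LCN2. Filled red points passed an adjusted p of 0.05 and are named, open points did not, and black bars are list medians, which are 0.85 for monocyte and macrophage markers, 1.09 for neutrophil surface receptors and -0.28 for azurophil granule proteins.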

How the data were processed

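The authors deposited 1 linear intensity per probe set and array, computed with Affymetrix Microarray Suite 5.0 (MAS5), per the labels. Each array had a trimmed mean (2% off each end) of 500.0 and was not normalized again. The table held 52865 probe sets, and 99 controls were left out. A platform annotation, which can be old, gave 1 symbol for 24956, several for 361 and none for 27449. Values were taken as log2(signal + 40), which understates low folds. limma 3.58.1 in R 4.3.3 (lmFit, eBayes with variance trend, no covariate, no brightness filter, two-sided) compared the groups over 52766 probe sets, with Benjamini-Hochberg adjustment and a threshold of 0.05. It was tested on simulated data. A gene is its probe set of highest mean. S100A8, S100A9 and LCN2, and all gene lists, were chosen with earlier results of these data known. Named are up to 4 called genes of smallest p per list (2 where none was called), 10 neutrophil markers and the 5 genes of most like pattern. Alternatives were 2 normalizations, 2 pseudocounts, 2 brightness filters, other variance models, array weights, the run, other probe set rules and leaving out each array. Precision is limited by the number of arrays.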

Additional observations from a re-analysis of the deposited data

How the results depend on the processing

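The number of called probe sets, 826 as reported, was 1351 and 1321 with the brightness filters (at the array median in 3 arrays, and at the median of means), 19 with eBayes without trend, 7 within run 1, and 58 to 1248 when 1 array was left out. The neutrophil count of 2 was 0 without trend and 0 within run 1, and 0 to 2 when 1 array was left out. Run 2, with 1 array a group, gives no test. With a pseudocount of 160 the log2 difference was 4.08 for S100A8 and 4.58 for S100A9. For LCN2 it was 1.98 within run 2, -0.27 over all its probe sets and -0.42 on the probe set without shared probes; S100A9 has none of that kind. IL10 turned to 0.18 over all its probe sets, and MPO to 0.19 likewise and to 0.0077 within run 1. The cause of these shifts was not tested beyond the fewer arrays and other probe sets that the settings use. No paired analysis was possible because the groups share no replicate number. Signal over background is unknown, which limits the folds of S100A8 and S100A9.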
